A study of Mus musculus with 16 samples.

Results

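The genes described here are 10 clock genes whose transcripts cycle over the day: the Period genes Per1, Per2 and Per3, the Cryptochromes Cry1 and Cry2, the nuclear receptors Nr1d1 and Nr1d2, the output factor Dbp, the repressor Ciart and the activator Arntl, also written Bmal1. They were taken by Ensembl identifier from the 22337 genes of the table, 10 of 10 were found, and 10 of 10 passed the filter on low counts. RNA of the nucleus accumbens, the ventral part of the striatum, was sequenced from male C57BL/6 mice given saline, arecoline, caffeine or nicotine over 4 days, 4 libraries a group. Arecoline is the muscarinic agonist of the areca nut, caffeine an adenosine receptor antagonist and nicotine an agonist of nicotinic acetylcholine receptors. Saline was the control for the 3 compounds. The sources used here give neither dose nor route, nor the age of the mice or the hour of dissection. Separate animals are named by no label, so the p-values cover variation among these libraries, which may be technical.

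In the mammalian clock, the protein of Arntl pairs with CLOCK or, in forebrain, with NPAS2, and the pair activates genes that carry an E-box in their promoters. Period, Cryptochrome and Ciart proteins act back on that pair and repress it. NR1D1 and NR1D2, also called REV-ERB alpha and beta, repress Arntl and Nfil3 through ROR elements, where ROR proteins activate. DBP activates genes with a D-box, and the protein of Nfil3 represses at the same element. Arntl transcripts peak at about the opposite time of day to those of Dbp, Nr1d1 and Per3 in many tissues, and the striatum runs such a rhythm outside the master clock of the suprachiasmatic nucleus.

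The promoters of the clock genes were read for the elements through which they regulate each other. Sequences are from RefSeq on build GRCm38.p6, which has the coordinates of mm10, and 9 of the 10 genes matched the table by symbol, the other being Per2. Each window is the 250 bases before a transcription start, searched on both strands for the E-box CACGTG, the E'-box CACGTT, the D-box TTATGTAA or TTACGTAA, the ROR element TAGGTCA or TGGGTCA and the CRE TGACGTCA. Of 32851 such windows, 6.02% held an E-box, 3.85% an E'-box, 0.931% a D-box, 5.38% a ROR element and 1.55% a CRE. No 2 of these elements overlapped in the windows of the clock genes. Dbp and Nr1d2 are shown because the comparisons turn on them, and their windows held none of the 5, which says only that these letters are not there. Per3 and Ciart are shown for repeated elements. Per3 held 2 D-boxes, TTATGTAA, at -205 to -198 and -158 to -151 from the start, and Ciart 3 E-boxes, at -116 to -111, -58 to -53 and -44 to -39. Cry1 held an E-box and an E'-box, Per1 an E-box, and Cry2 and Nr1d1 an E'-box each. Nfil3 had a ROR element at -12 to -6, and Arntl one at 31 to 37 bases after a start, printed with 10 bases on each side. Capitals mark these elements, and each sequence runs 5′ to 3′ on the strand of its gene.
Dbp (GRCm38.p6 chr7:45704997-45705246, plus strand): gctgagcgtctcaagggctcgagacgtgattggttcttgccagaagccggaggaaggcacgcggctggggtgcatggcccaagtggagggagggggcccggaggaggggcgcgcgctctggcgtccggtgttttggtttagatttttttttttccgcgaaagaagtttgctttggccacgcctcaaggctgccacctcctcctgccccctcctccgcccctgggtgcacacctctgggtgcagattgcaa
Nr1d2 (GRCm38.p6 chr14:18239107-18239356, minus strand): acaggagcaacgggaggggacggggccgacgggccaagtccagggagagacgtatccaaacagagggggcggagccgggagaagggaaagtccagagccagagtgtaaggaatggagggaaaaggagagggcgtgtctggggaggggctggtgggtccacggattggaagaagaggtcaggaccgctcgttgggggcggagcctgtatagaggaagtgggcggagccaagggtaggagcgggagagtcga
Per3 (GRCm38.p6 chr4:151044666-151044915, minus strand): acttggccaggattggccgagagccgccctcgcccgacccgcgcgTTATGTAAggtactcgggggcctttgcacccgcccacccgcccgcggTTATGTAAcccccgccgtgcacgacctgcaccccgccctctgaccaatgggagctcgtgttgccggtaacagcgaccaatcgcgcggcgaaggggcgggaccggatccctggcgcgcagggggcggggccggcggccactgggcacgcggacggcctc
Ciart (GRCm38.p6 chr3:95882229-95882478, minus strand): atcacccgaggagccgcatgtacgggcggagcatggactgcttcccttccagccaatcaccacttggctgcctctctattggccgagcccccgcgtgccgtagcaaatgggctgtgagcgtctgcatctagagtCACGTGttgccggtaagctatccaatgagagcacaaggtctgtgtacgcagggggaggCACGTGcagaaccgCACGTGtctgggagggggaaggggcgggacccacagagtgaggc
Arntl (GRCm38.p6 chr7:113207531-113207557, plus strand): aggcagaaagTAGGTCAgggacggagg

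Libraries differed in tissue content before any clock gene was considered. The total estimated count of a library was 9.04 to 24.3 M. The summed level of 12 medium spiny neuron markers, the genes of the main striatal cell type, was 9516 CPM (counts per M of the TMM-scaled total) in saline replicate 3, and 7018 and 9176 CPM in arecoline replicates 2 and 3. Drd1 ran from 7.89 to 306 CPM and Drd2, the other dopamine receptor of these cells, from 0.199 to 58.5 CPM. The sum lay between 588 and 2325 CPM in the other 13 libraries, and within the caffeine group between 665 and 1915 CPM. Nicotine replicate 2 stood apart through olfactory sensory neuron genes, whose sum of 1292 CPM was above the range of 262 to 801 CPM in the others. These 4 libraries are called the libraries that stood apart. Of 8 genes listed for the suprachiasmatic nucleus, Nms and Six6 were each at 0 in 10 of 16 libraries and Lhx1 in 6, with none of these above 0.496 CPM. The other 5 were detected in 15 or 16 libraries, with Vip, also a gene of cortical interneurons, at 9.1 to 114 CPM, Rgs16 at 3.64 to 11.6 CPM, Avp up to 12, Vipr2 up to 10.8 and Prok2 up to 2.73 CPM. In bulk RNA, fewer cells of a type and less RNA per cell cannot be told apart.

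Per transcript length, Cry2 was the most abundant of the clock genes. Its mean over the 16 libraries was 56.5 FPKM, followed by Nr1d1 at 39.9, Dbp at 30.3, Per1 at 29.1, Nr1d2 at 15.3 and Ciart at 13.8 FPKM. Arntl stood at 11.5, Cry1 at 8.89, Per3 at 7.01 and Per2 at 4.45 FPKM. Of the 9 neighbours in that order, the ranges over libraries overlapped for all but Per1 and Nr1d2. Dbp had the widest relative range, from 9.46 to 119.5 CPM, and also the lowest single count, 143. Over the libraries, Cry2 ran from 166 to 261 CPM and Nr1d1 from 86.8 to 129.5 CPM.

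**Figure D1:**
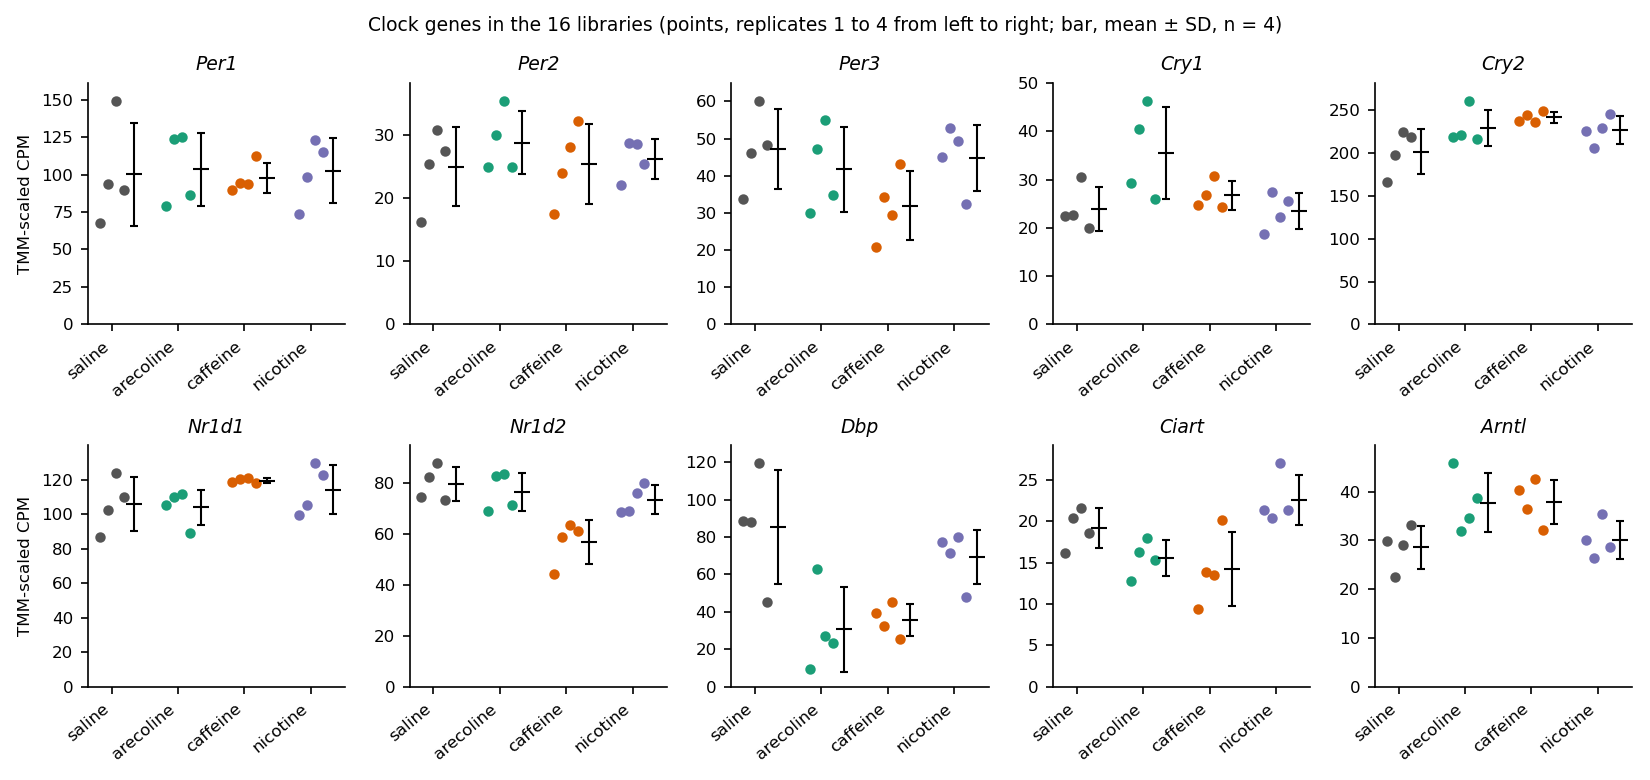
TMM-scaled CPM of the 10 clock genes in each library (points, replicates 1 to 4 from left to right within a group) with the mean ± SD of each group (n = 4). The 4 caffeine libraries of Nr1d2 lie between 44.4 and 63.5 CPM, below the other 12, and Dbp spans 9.46 to 119.5 CPM.

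Caffeine was the compound under which a clock gene passed the test. Nr1d2 fell, and Dbp, Per3 and Ciart had lower means with caffeine while Arntl and Cry2 had higher means, none of these 5 past the threshold. By edgeR's quasi-likelihood test, with adjustment over the 14674 genes tested, 1 of 10 clock genes passed an adjusted p of 0.05 against saline, where 4.08% of all genes did. At an unadjusted p under 0.05 there were 6 of 10, against 24.6% of all genes, and DESeq2 called 2, Nr1d2 and Dbp, against 10.2% of all genes. The 4 caffeine libraries did not overlap the 4 saline libraries for 3 of 10 clock genes, where 16% of all genes were so separated. Cry2 was above saline in each caffeine library, and Nr1d2 and Dbp were below. The median log2 difference of the 10 genes was -0.01, against -0.018 for all genes.

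With arecoline, edgeR called 0 of 10 clock genes against saline and 0.0136% of all genes. At an unadjusted p there were 3, Cry1, Dbp and Arntl, against 15.7% of all genes, and DESeq2 called 1, Dbp, against 3.12%. For no clock gene were the arecoline libraries wholly apart from saline, as they were for 7.03% of all genes. With nicotine, edgeR called 0 clock genes and 0 of all genes, a share of 0%. At an unadjusted p there was again no clock gene, against 12.2% of all genes, and DESeq2 called 0, against 0.729%. No clock gene was separated from saline by nicotine, where 6.84% of all genes were.

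Between compounds, edgeR called 0 clock genes in each of 3 comparisons. For caffeine against arecoline it called 0% of all genes, with 2 clock genes at an unadjusted p (15.8% of all genes) and 1 by DESeq2, Nr1d2 (2.59%). For caffeine against nicotine the shares of all genes were 0% by edgeR, 9.3% at an unadjusted p, where 4 clock genes lay, and 0.0341% by DESeq2, where no clock gene did. For arecoline against nicotine they were 0.0886%, 18.2% with 4 clock genes and 4.15% with 1, Cry1. The separated clock genes were Nr1d1 and Nr1d2 for caffeine against arecoline (9.18% of all genes) and Nr1d2, Dbp and Ciart for caffeine against nicotine (6.11%). For arecoline against nicotine it was Ciart (8.97%). For the mean of the 3 compounds against saline and for any difference among the 4 groups, edgeR called 0 clock genes and in each case 1.14% of all genes. The unadjusted counts of clock genes were 4 against 19.5% of all genes and 5 against 23.4%. DESeq2 called 0 for the mean, against 4.67%, and 4 for any difference, Cry1, Nr1d2, Dbp and Ciart, against 11.4%.

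**Figure D2:**
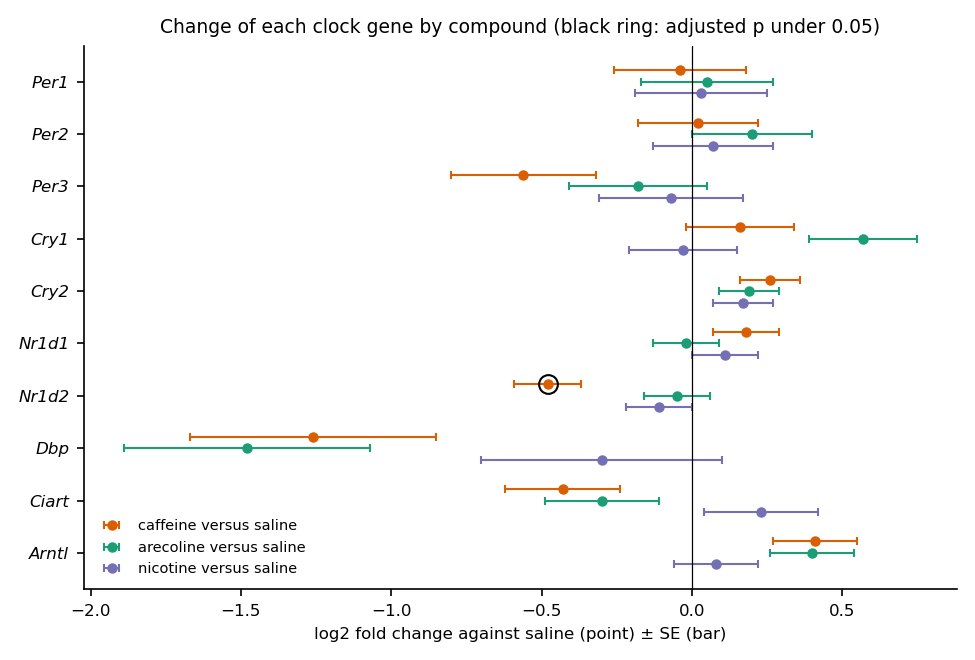
Log2 fold change of each clock gene against saline (x axis, point) with its SE (bar) for caffeine, arecoline and nicotine, from the edgeR model over 16 libraries. The black ring marks Nr1d2 with caffeine, at -0.48 ± 0.11. Dbp lies at -1.26 with caffeine, -1.48 with arecoline and -0.30 with nicotine.

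Nr1d2 (chromosome 14, 18204054 to 18239127, minus strand), whose upstream window held no clock element, encodes REV-ERB beta, a repressor at ROR elements. Its level was 74.6, 82.3, 87.8 and 73.5 CPM in saline replicates 1 to 4, and 44.4, 58.9, 63.5 and 61.1 CPM in the caffeine libraries. With arecoline it was 69.1, 82.7, 83.4 and 71.4 CPM, and with nicotine 68.6, 68.9, 76.2 and 80.1 CPM. The 4 caffeine libraries were thus below each of the other 12, while saline, arecoline and nicotine overlapped one another. Of all genes, 0.654% had their 4 caffeine libraries on 1 side of the other 12, and Nr1d2 was the 1 clock gene among them. The same count was 0 of 10 clock genes for saline (0.613% of all genes), arecoline (0.579%) and nicotine (0.143%). The mean fell from 79.5 ± 6.75 to 56.96 ± 8.60 CPM (SD, n = 4), and the log2 fold change was -0.48 ± 0.11 (SE; edgeR, adjusted p = 0.0303). Against arecoline the caffeine group differed by -0.43 ± 0.11 (edgeR, adjusted p = 0.13) and against nicotine by -0.37 ± 0.11 (adjusted p = 0.493). Neither difference between compounds passed the threshold. The log2 differences of arecoline and nicotine from saline were -0.05 ± 0.11 and -0.11 ± 0.11.

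The call of Nr1d2 depended on single libraries. Without saline replicate 2 the adjusted p was 0.0854 and without saline replicate 3 it was 0.0718. Without caffeine replicate 1, the lowest, the log2 fold change was -0.37 with an adjusted p of 0.118, and without caffeine replicate 2 the adjusted p was 0.0845. In each of these 4 fits the number of genes called also dropped, from 599 to 57, 350, 23 and 49 in the same order. Without the 4 libraries that stood apart, Nr1d2 was at -0.44 with an adjusted p of 0.0297.

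Nr1d1 encodes REV-ERB alpha, the close relative of REV-ERB beta. It was measured at 86.8, 102, 124 and 109.6 CPM with saline and at 119, 120.2, 121 and 118 CPM with caffeine. With arecoline it stood at 105, 109.8, 112 and 89.2 CPM, and with nicotine at 99.3, 105, 129.5 and 122 CPM. The caffeine libraries lay within the saline range and closer together than any other group. The log2 difference of caffeine from saline was 0.18 ± 0.11 (SE; edgeR, adjusted p = 0.343), in the opposite direction to Nr1d2. The ratio of Nr1d2 to Nr1d1 CPM, chosen after the values were seen and given with no test, ranged from 0.671 to 0.859 with saline. It was 0.374 to 0.526 with caffeine, 0.656 to 0.80 with arecoline and 0.589 to 0.691 with nicotine. Nr1d1 (mm10 chromosome 11, 98767932 to 98775333, minus strand) overlaps Thra, the thyroid hormone receptor alpha gene on the other strand. They share 263 exon bases. Thra rose with caffeine, from 301 ± 25.1 to 439 ± 84.1 CPM (log2 0.54 ± 0.13, edgeR, adjusted p = 0.0324). Leaving out saline replicate 2, 3 or 4 raised the adjusted p for Thra to 0.0765, 0.0769 and 0.0605. Leaving out caffeine replicate 1 or 2 raised it to 0.118 and 0.077. With the score of medium spiny neuron genes in the model Thra was at 0.40 ± 0.14 (edgeR, adjusted p = 0.154). With that of oligodendrocyte genes it was at 0.07 ± 0.16 (adjusted p = 0.93). The sources do not say whether counting used the strand, so reads of the overlap cannot be assigned to 1 gene with certainty.

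Dbp encodes a PAR-type leucine zipper activator and is among the most strongly cycling transcripts of many tissues. It was at 88.5, 88.3, 119.5 and 45.4 CPM with saline, and at 39.2, 32.7, 45.3 and 25.6 CPM with caffeine. With arecoline it was at 9.46, 62.9, 27.1 and 23.1 CPM, and with nicotine at 77.5, 71.5, 80.1 and 48.0 CPM. Every caffeine library was below every saline library, though the highest caffeine value, 45.3 CPM, nearly met the lowest saline value, 45.4 CPM. Of the arecoline libraries, 3 were below all saline and all nicotine libraries, and replicate 2 was within both ranges. The means were 85.4 ± 30.4 CPM with saline, 35.7 ± 8.48 CPM with caffeine, 30.6 ± 22.8 CPM with arecoline and 69.3 ± 14.6 CPM with nicotine (SD, n = 4).

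The log2 differences of Dbp from saline were -1.26 ± 0.41 for caffeine (SE; edgeR, adjusted p = 0.0808), -1.48 ± 0.41 for arecoline (adjusted p = 0.108) and -0.30 ± 0.40 for nicotine (adjusted p = 0.801). They share the saline libraries. None passed the threshold, and neither did caffeine against nicotine at -0.96 ± 0.40 (adjusted p = 0.507) or arecoline against nicotine at -1.17 ± 0.41 (adjusted p = 0.159). Without arecoline replicate 2, the library of that group with the highest Dbp, arecoline differed from saline by -2.09 with an adjusted p of 0.0249. From nicotine it then differed by -1.78 with an adjusted p of 0.0245. In each comparison this was the 1 fit of 8 leaving out 1 library that passed. Those fits ran from -2.09 to -1.18 against saline and from -1.78 to -0.88 against nicotine. Without the 4 libraries that stood apart, the arecoline group kept only replicates 1 and 4. Their medium spiny neuron sums were 588 and 603 CPM, against 1999 to 2325 CPM in the saline libraries kept. That content and arecoline cannot be told apart there. In that fit Dbp passed against saline for arecoline (-2.17, adjusted p = 0.00576) and for caffeine (-1.06, adjusted p = 0.0305). Of all genes, 6.39% and 10% passed there, against 0.0136% and 4.08% with all 16 libraries. Dbp (chromosome 7, 45705088 to 45710203, plus strand) shares 539 exon bases with Sphk2 on the other strand. The log2 difference of Sphk2 with caffeine was 0.17 ± 0.13, which did not pass the threshold (adjusted p = 0.421).

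Nfil3, which encodes the repressor at D-boxes, was the 1 gene of 26 other clock genes that passed in a comparison with saline. That comparison was with caffeine, where 4.08% of all genes passed. It was at 9.34, 9.38, 9.10 and 8.11 CPM with saline, and at 16.5, 13.6, 16.7 and 14.0 CPM with caffeine. With arecoline it stood at 17.5, 10.7, 11.04 and 23.4 CPM, and with nicotine at 9.94, 11.03, 10.4 and 10.3 CPM. In each compound group the 4 libraries were above the 4 saline libraries. Of all genes, 16% were separated from saline in either direction with caffeine, 7.03% with arecoline and 6.84% with nicotine. Nfil3 rose with caffeine by 0.76 ± 0.20 on the log2 scale (SE; edgeR, adjusted p = 0.0474). The call held without saline replicate 1 and was lost without any one of the other 7 libraries, with adjusted p between 0.0624 (without caffeine replicate 4) and 0.135 (without caffeine replicate 1) and differences of 0.72 to 0.82. With the score of medium spiny neuron genes in the model Nfil3 was at 0.40 ± 0.18 (adjusted p = 0.256), and with that of oligodendrocyte genes at 0.15 ± 0.26 (adjusted p = 0.906). For arecoline the difference was 0.80 ± 0.20 (adjusted p = 0.0929; 0.95 and 0.0376 without arecoline replicate 2) and for nicotine 0.21 ± 0.21 (adjusted p = 0.715). The 2 arecoline libraries with the highest Nfil3, replicates 1 and 4, were the 2 with the lowest Dbp. They also had the lowest medium spiny neuron sums of that group, 588 and 603 CPM against 7018 and 9176 CPM. A link between Nfil3 and Dbp was not tested. The ratio of Dbp to Nfil3 CPM, chosen after the values were seen, was 5.6 to 13.1 with saline, 1.82 to 2.71 with caffeine, 0.542 to 5.89 with arecoline and 4.67 to 7.80 with nicotine.

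Tef and Hlf encode the other PAR-type factors. Tef was at 131, 131, 320.1 and 154 CPM with saline and at 114, 257, 287 and 117 CPM with arecoline, highest in the libraries rich in medium spiny neuron genes. It lay between 133 and 157 CPM with caffeine (log2 -0.40 ± 0.30, edgeR, adjusted p = 0.424). Hlf averaged 49.1 CPM with saline and 47.8 CPM with caffeine (-0.04 ± 0.19, adjusted p = 0.919).

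**Figure D3:**
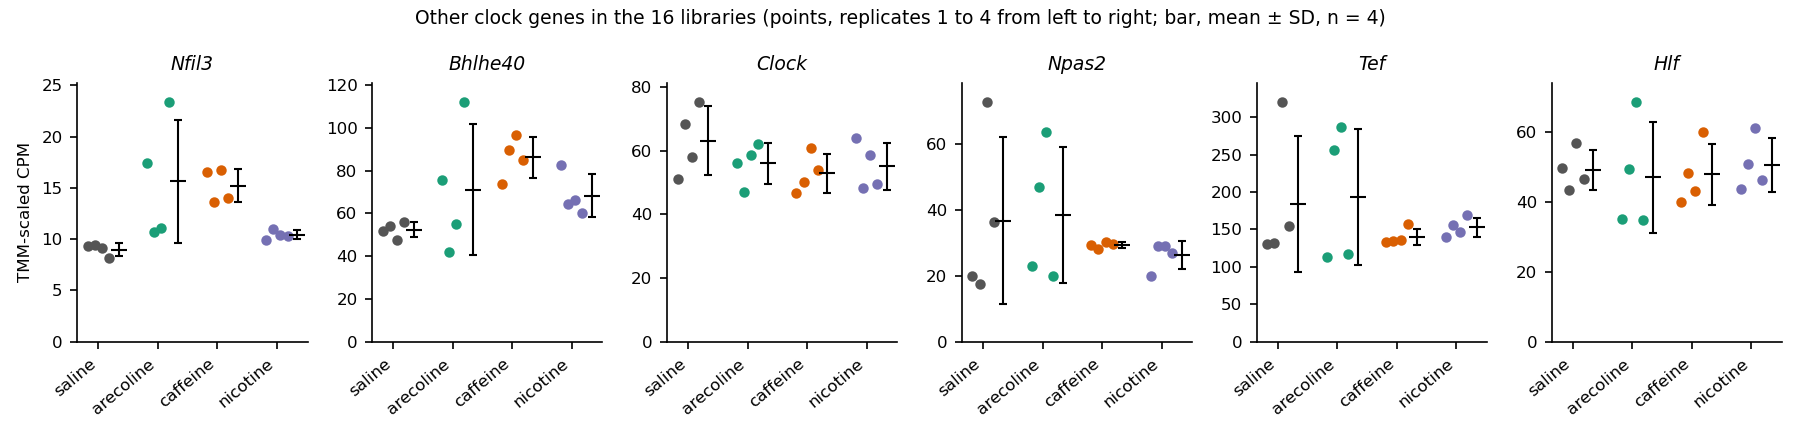
TMM-scaled CPM of 6 other clock genes in each library (points, replicates 1 to 4 from left to right within a group) with the mean ± SD (n = 4). Nfil3 lies at 8.11 to 9.38 CPM with saline and 13.6 to 16.7 CPM with caffeine, and Npas2 and Tef are highest in saline replicate 3 and arecoline replicates 2 and 3.

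Among the activators, Arntl was at 29.8, 22.5, 29.1 and 33.1 CPM with saline, and at 40.3, 36.5, 42.6 and 32.2 CPM with caffeine. It was at 45.9, 31.8, 34.6 and 38.7 CPM with arecoline and at 30.1, 26.3, 35.5 and 28.7 CPM with nicotine. In both the caffeine and the arecoline group 3 of 4 libraries were above every saline library, and the remaining one was within the saline range. The log2 differences were 0.41 ± 0.14 for caffeine (SE; edgeR, adjusted p = 0.102) and 0.40 ± 0.14 for arecoline (adjusted p = 0.193), and neither passed in any of 21 alternative fits. For nicotine the means of 30.1 ± 3.86 and 28.6 ± 4.43 CPM overlapped. Clock, the partner of Arntl, averaged 63.2 CPM with saline and 53.0 CPM with caffeine (-0.25 ± 0.14, adjusted p = 0.256). Npas2, the forebrain partner, was at 20.0, 17.6, 72.7 and 36.4 CPM with saline and at 23.0, 46.8, 63.5 and 20.1 CPM with arecoline. Its caffeine libraries lay between 28.0 and 30.1 CPM (-0.33 ± 0.39, adjusted p = 0.628). Rora, whose product activates at ROR elements, was named after its values were seen. It was below saline in each library of caffeine (27.0 to 38.2 against 38.6 to 47.5 CPM) and of arecoline (24.8 to 37.5 CPM). Rora did not pass the test in either comparison (edgeR, adjusted p = 0.128 and 0.12). Such separation from saline, in either direction, was found for 16% of all genes with caffeine and 7.03% with arecoline.

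Of the 26 other clock genes, all tested, 1 was higher and 0 lower with caffeine past the threshold, where 4.08% of all genes passed. The median log2 difference was -0.04 against -0.018 for all genes. For arecoline the counts were 0 and 0 (0.0136% of all genes) with a median of 0 against 0.004. For nicotine they were 0 and 0 (0% of all genes) with a median of 0.01 against 0.018. The 7 activators had a median of -0.25 with caffeine, -0.17 with arecoline and -0.20 with nicotine, with none past the threshold. Bhlhe40, which encodes the E-box repressor DEC1, averaged 52.4 CPM with saline and 86.2 CPM with caffeine (0.72 ± 0.22, edgeR, adjusted p = 0.0666). Its caffeine range of 73.8 to 96.5 CPM lay above the saline range of 47.7 to 55.8 CPM. With caffeine, 16% of all genes were separated from saline in either direction.

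Of the Period genes, whose proteins form the negative limb, Per1 was at 67.9, 93.7, 149 and 89.6 CPM with saline and at 89.6, 94.6, 93.6 and 113 CPM with caffeine. With arecoline it was at 78.8, 124, 125 and 86.2 CPM and with nicotine at 73.8, 98.2, 123 and 115 CPM. The groups overlapped throughout, with means between 97.6 and 103 CPM and a caffeine difference of -0.04 ± 0.22 on the log2 scale. Per2 was at 16.2, 25.5, 30.8 and 27.6 CPM with saline and at 17.5, 23.98, 28.1 and 32.3 CPM with caffeine. Its means were 25.0 ± 6.27 and 25.4 ± 6.30 CPM in these groups, 28.9 ± 5.01 CPM with arecoline and 26.3 ± 3.14 CPM with nicotine (SD, n = 4). Its log2 differences were 0.02 ± 0.20 for caffeine and 0.20 ± 0.20 for arecoline. Per3 averaged 47.1 ± 10.8 CPM with saline and 32.0 ± 9.31 CPM with caffeine, where its libraries ran from 20.9 to 43.1 CPM and overlapped the saline range of 33.9 to 60.2 CPM. The log2 difference was -0.56 ± 0.24 (SE; edgeR, adjusted p = 0.157). For Per3 it was -0.20 ± 0.21 (adjusted p = 0.662) with the score of medium spiny neuron genes in the model and -0.05 ± 0.32 (adjusted p = 0.978) with that of oligodendrocyte genes. With arecoline it was -0.18 ± 0.23 (adjusted p = 0.759).

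Ciart encodes CHRONO, a repressor of the CLOCK and BMAL1 pair. It was at 16.2, 20.5, 21.7 and 18.6 CPM with saline, and at 9.34, 13.9, 13.6 and 20.2 CPM with caffeine. With arecoline it was at 12.8, 16.3, 17.96 and 15.4 CPM and with nicotine at 21.4, 20.4, 27.0 and 21.3 CPM. Each nicotine library was above each arecoline and each caffeine library, while the saline group overlapped all 3. From saline, the log2 differences were -0.43 ± 0.19 for caffeine (SE; edgeR, adjusted p = 0.175), -0.30 ± 0.19 for arecoline (adjusted p = 0.469) and 0.23 ± 0.19 for nicotine (adjusted p = 0.653). Caffeine and nicotine differed by -0.66 ± 0.19 (adjusted p = 0.493) and arecoline and nicotine by -0.53 ± 0.19 (adjusted p = 0.171), without passing.

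The Cryptochromes, the other partners in the repressor complex, had means above saline in caffeine and arecoline libraries. Cry2 averaged 202 ± 26.3 CPM with saline and 242 ± 6.43 CPM with caffeine (SD, n = 4), and its caffeine libraries, at 236 to 249.7 CPM, were all above the saline range of 166 to 224 CPM. The log2 difference was 0.26 ± 0.10 (SE; edgeR, adjusted p = 0.119). It passed without the 4 libraries that stood apart (0.31, adjusted p = 0.047), where 10% of all genes did. For arecoline it was 0.19 ± 0.10 and for nicotine 0.17 ± 0.10. Cry1 averaged 23.9 ± 4.62 CPM with saline, 26.7 ± 2.96 CPM with caffeine, 35.5 ± 9.48 CPM with arecoline and 23.5 ± 3.79 CPM with nicotine. Its arecoline libraries ran from 26.0 to 46.3 CPM, with the highest values in replicates 2 and 3, against 19.9 to 30.6 CPM with saline. The log2 differences from saline were 0.57 ± 0.18 for arecoline (adjusted p = 0.152) and 0.16 ± 0.18 for caffeine (adjusted p = 0.607).

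Levels of most clock genes went with the medium spiny neuron sum in the saline and arecoline groups. For 9 of 10, saline replicate 3 was the highest of its group and arecoline replicates 2 and 3 were both above replicates 1 and 4, the order that all 12 medium spiny neuron markers and all 6 endothelial markers had. The cortical excitatory neuron sum, over 8 markers, went the other way, with 180 CPM in saline replicate 3 against 590 to 611 CPM in the other saline libraries, and 447 and 288 CPM in arecoline replicates 2 and 3 against 564 and 622 CPM in 1 and 4. Of all genes, 13.9% had this order. The exception was Arntl, which was lower in arecoline replicates 2 and 3 than in 1 and 4. With FPKM in place of TMM-scaled CPM the count was 8 of 10, with Cry2 the other exception, against 13% of all genes. Of the 26 other clock genes, 6 had the order, among them Npas2, Tef and Hlf. The order was looked for after the values were seen. The 3 libraries were picked by marker genes and not by clock genes. In the other 2 groups replicate 4 had the highest medium spiny neuron sum, 1915 CPM with caffeine and 1493 CPM with nicotine. Of the 10 clock genes, 5 were highest and 4 lowest of their group in caffeine replicate 4, where Dbp, Cry1, Nr1d1 and Arntl were the low ones. In nicotine replicate 4, Cry2 and Nr1d2 were highest and Per3 and Dbp lowest.

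**Figure D4:**
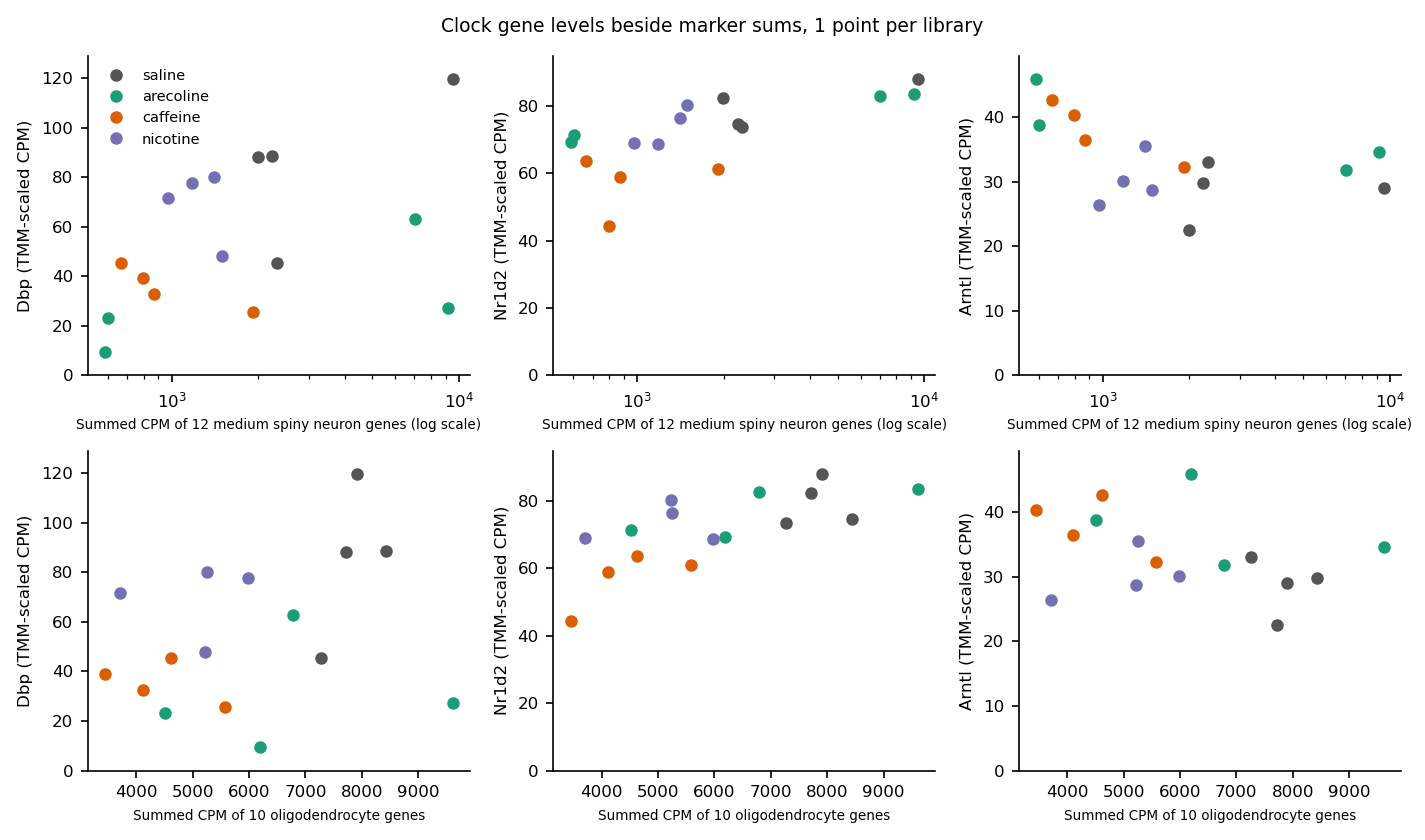
Level of Dbp, Nr1d2 and Arntl (y axis, TMM-scaled CPM) in each library against the summed CPM of 12 medium spiny neuron genes (top row, log scale) and of 10 oligodendrocyte genes (bottom row). Nicotine libraries have medium spiny neuron sums of 973 to 1493 CPM, within the caffeine range of 665 to 1915 CPM, and Dbp at 48.0 to 80.1 CPM, above caffeine. The cause of that difference was not tested.

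Beside the caffeine result, the oligodendrocyte marker sum ran from 3451 to 5581 CPM with caffeine and from 7270 to 8433 CPM with saline. Past the threshold, 7 of 10 oligodendrocyte markers fell, where 4.08% of all genes passed in either direction. The astrocyte sum ran from 2751 to 4183 against 3613 to 4992 CPM, and 1 of 8 markers fell. The cortical excitatory neuron sum ran from 750 to 904 CPM with caffeine, above the 180 to 611 CPM with saline, with 0 of 8 markers past the test and a median log2 difference of 0.84. With nicotine that sum was 687 to 839 CPM. The medium spiny neuron sum ran from 665 to 1915 CPM with caffeine, below the 1999 to 9516 CPM with saline. Of its 12 markers 0 passed, with a median log2 difference of -2.48. When the score of medium spiny neuron genes entered the model, Nr1d2 differed between caffeine and saline by -0.34 ± 0.12 (edgeR, adjusted p = 0.148) and Dbp by -0.64 ± 0.40 (adjusted p = 0.437), and 40 genes in all were called. With the oligodendrocyte score, Nr1d2 differed by -0.18 ± 0.16 (adjusted p = 0.78), Dbp by -1.09 ± 0.72 (adjusted p = 0.707), and no gene was called. With the astrocyte score, Nr1d2 differed by -0.47 ± 0.14 (adjusted p = 0.116) and 1 gene was called. All saline libraries had higher oligodendrocyte and medium spiny neuron sums than all caffeine libraries. All caffeine libraries had higher cortical sums, so these contents and caffeine cannot be told apart.

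For Dbp the score of medium spiny neuron genes moved the 2 comparisons by different amounts. With caffeine the log2 difference of -1.26 became -0.64, and with arecoline the difference of -1.48 became -1.39 ± 0.35 (edgeR, adjusted p = 0.0684).

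**Figure D5:**
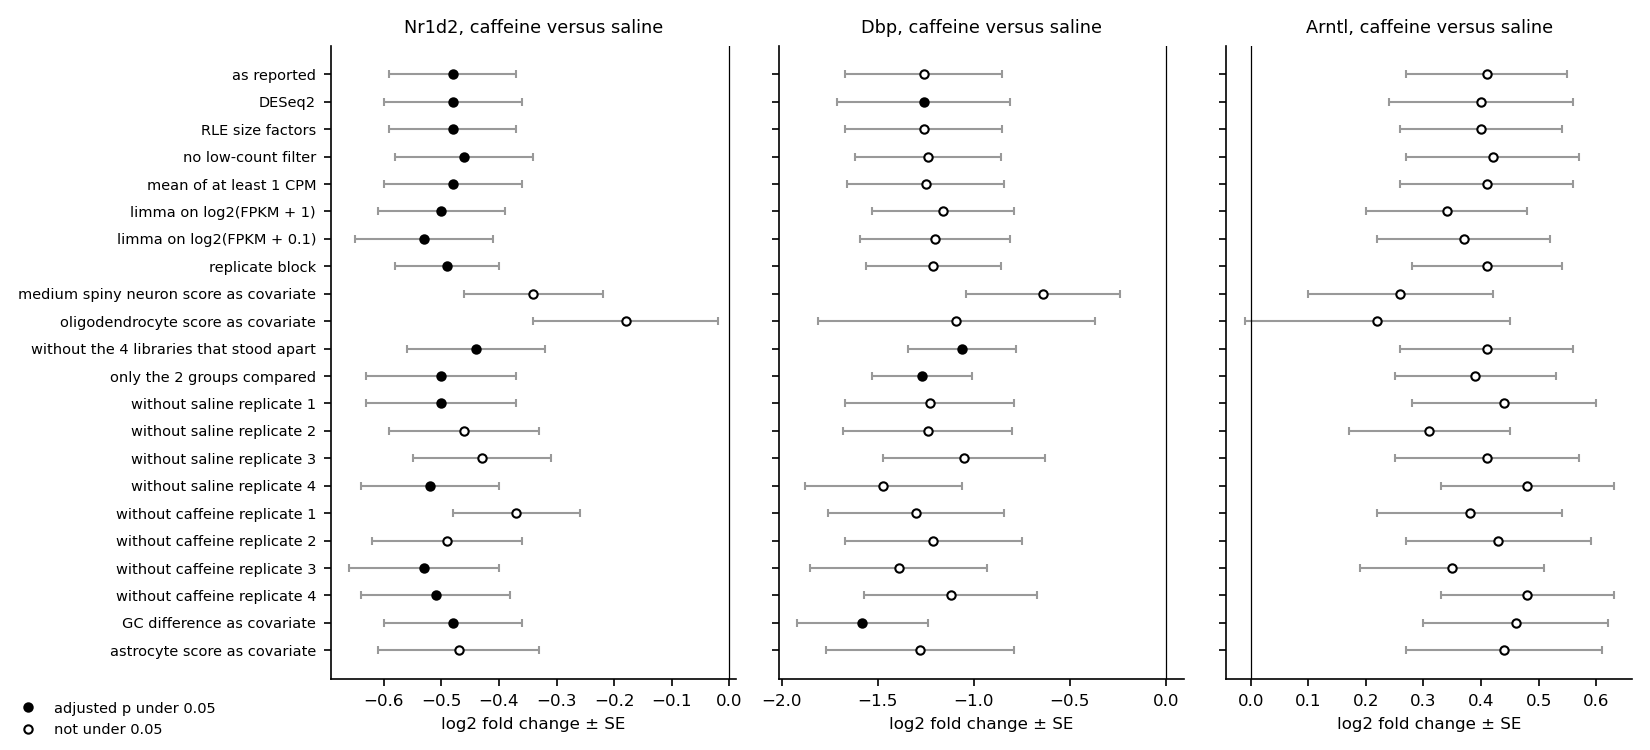
Log2 fold change with its SE (x axis) of Nr1d2, Dbp and Arntl, caffeine against saline, as reported and in 21 alternative fits (rows). Filled points have an adjusted p under 0.05. Nr1d2 ranges from -0.53 to -0.18 over the alternatives and is filled in 14, Dbp from -1.58 to -0.64 and filled in 4, and Arntl from 0.22 to 0.48 and filled in 0.

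Base composition was set beside the Dbp values, since its transcript had the highest GC content of the 10, 61.6%, against 41.8% for Nr1d2. The difference in median centred log2 CPM between the tenth of genes richest and the tenth poorest in GC was between 0.056 and 0.36 in the caffeine libraries. It was -0.12, 0.18, -0.219 and -0.384 in arecoline replicates 1 to 4 and -0.041, 0.003, 0.169 and -0.261 in the saline libraries. In the nicotine libraries it was -0.008, 0.119, 0.073 and -0.024. The library with the lowest Dbp of its group was saline replicate 4, arecoline replicate 1, caffeine replicate 4 and nicotine replicate 4, with a negative value in each group but caffeine, where all 4 values were positive. That value was the lowest of its group with saline and nicotine, but not with arecoline or caffeine. A link of base composition with Dbp was not tested. With that difference as a covariate, Dbp was at -1.58 ± 0.34 with caffeine (edgeR, adjusted p = 0.0193) and at -1.28 ± 0.33 with arecoline (adjusted p = 0.116).

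Per1 is also an induced gene that responds to neuronal activity and to glucocorticoids, so lists of such genes were counted beside it. Of 18 immediate early genes, 3 rose and 0 fell with caffeine (4.08% of all genes passed), with a median log2 difference of 0.46. They were Jun, an AP-1 subunit (0.81 ± 0.17, edgeR, adjusted p = 0.0218), the nuclear receptor gene Nr4a3 (0.91 ± 0.23, adjusted p = 0.042) and the zinc finger gene Egr3 (0.51 ± 0.13, adjusted p = 0.0433). Each of these calls was lost without 1 or another library. Jun did not pass without saline replicate 2 (adjusted p = 0.071), caffeine replicate 1 (0.091) or caffeine replicate 2 (0.0712). Nr4a3 passed only without saline replicate 4 and Egr3 only without saline replicate 3. Leaving out any of the other 7 libraries gave adjusted p of 0.0539 to 0.118 for Nr4a3 and 0.0564 to 0.145 for Egr3. With the score of medium spiny neuron genes in the model, Jun, Nr4a3 and Egr3 had adjusted p of 0.0759, 0.17 and 0.055. With that of oligodendrocyte genes they had 0.592, 0.741 and 0.621. Of 12 glucocorticoid-responsive genes, 0 passed in either direction, with a median of 0.13. Of 8 cold-inducible and heat shock genes, 2 rose, the chaperone genes Dnajb1 (0.67 ± 0.09, adjusted p = 0.00374) and Hspa1a (1.34 ± 0.22, adjusted p = 0.0111), with a list median of 0.33. Both passed in all 8 fits that left out 1 library and with the score of medium spiny neuron genes (adjusted p = 0.0203 and 0.0429). Neither passed with the oligodendrocyte score, at 0.63 ± 0.14 (adjusted p = 0.458) and 0.76 ± 0.30 (0.62). With the astrocyte score the adjusted p was 0.0673 and 0.076. Hspa1a shares reads with its near-identical copy Hspa1b, so its count depends on how reads were divided. With arecoline and nicotine no gene of these 3 lists passed, where only 0.0136% and 0% of all genes did. Their medians were 0.48, 0.02 and 0.29 with arecoline and 0.20, 0.21 and 0.30 with nicotine, in the same order.

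No correlation of a clock gene with Dbp within groups passed the test. Over 16 libraries, with group means removed from log2 CPM, Pearson's r with Dbp ran from -0.40 for Arntl (permutation p = 0.22; Spearman's rho = -0.08, p = 0.80) to 0.50 for Cry1 (p = 0.18; rho = 0.44, p = 0.16). The 9 pairs were tested with 100000 permutations within groups, and the lowest adjusted p was 0.52 for Pearson's r and 0.70 for Spearman's rho. Arecoline replicates 1 and 2 were the 2 libraries farthest from the median of log2 Dbp with group means removed. Without them, r was 0.41 for Cry1 and 0.06 for Arntl. Over the 12 libraries without those that stood apart, r was -0.03 for Cry1, -0.12 for Arntl and -0.62 for Cry2, the strongest (permutation p = 0.016, adjusted p = 0.15; rho = -0.66, p = 0.025, adjusted p = 0.23).

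Likeness of pattern was also looked up among the 13836 genes with a mean of at least 1 CPM, by Pearson's r of group-centred log2 CPM over the same 16 libraries, given as a description. Those most like Dbp were H2-Ke6 (r = 0.95), Ssbp4 (0.94), Emc10 (0.93) and Stk11 (0.92). Those most like Per1 were Scmh1 (0.95), Atg2a (0.94), Plekha6 (0.93) and Cspg4 (0.93). For Arntl they were Tdp1 (0.85), Alox12b, Morn4 and Igfbpl1 (0.84 each). The clock genes described here were left out of this ranking beforehand, so their absence from it says nothing about their likeness to Dbp, Per1 or Arntl. Over all genes, likeness to Dbp rose with transcript GC content, with a Spearman correlation of 0.28 across genes, which are not independent replicates.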

How the data were processed

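Per the labels' protocols, RNA was copied by oligo-dT priming and template switching, amplified and sequenced on a NovaSeq instrument. Tools named in the submitters' processing notes, with no role or order, are RSEM, HISAT2, StringTie 1.3.1, Bowtie2 2.2.8 and fastp 0.18.0, on the mm10 build. The counting annotation is not stated there. The authors deposited estimated counts per gene, unscaled, of which 86.6% to 90.4% per library were exactly whole. They also deposited FPKM values, scaled to gene length and library total, per the file headers. Gene coordinates are from GENCODE M21, which matched 22232 of 22337 identifiers.

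The estimated counts were rounded and fitted with edgeR 4.0.16 (R 4.3.3) over all 16 libraries, with TMM factors, the filterByExpr filter, 1 mean per group and Benjamini-Hochberg adjustment over 14674 genes at 0.05. Levels are TMM-scaled CPM, and genes were compared with each other by FPKM. Library totals of 9.04 to 24.3 M counts set the precision. No 2 libraries of a group were duplicates within sampling noise (chi-square per degree of freedom at least 11.9).

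The 10 clock genes and the lists were chosen with earlier results of these data known. All 10 were named. Of 26 other clock genes, Clock, Npas2, Bhlhe40, Nfil3, Tef and Hlf were named in any case, and others if they passed against saline. Rora, named after its values were seen, and Thra and Sphk2, which overlap clock genes, fall outside this rule. Up to 3 genes of each stimulus list and the 4 most alike to Dbp, Per1 and Arntl were added.

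Alternatives were DESeq2 1.42.0, RLE size factors, no filter or a mean of 1 CPM, limma 3.58.1 on log2(FPKM + 1) or log2(FPKM + 0.1), a replicate block, and medium spiny neuron or oligodendrocyte scores as covariates. The fit was also run without the 4 libraries that stood apart, without each library in turn and on only the 2 groups compared. Scores are the mean centred log2 CPM of a marker list. The GC and astrocyte covariates were chosen after seeing the data. Correlations were computed in Python 3.11.15.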

Additional observations from a re-analysis of the deposited data

Results flagged for a closer look

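Among the 40 groups of 4 libraries (10 clock genes in 4 groups), 2 held a library far from the others by Dixon's test, where chance gives about 1 in 20 groups. Cry2 was at 261.0 CPM in arecoline replicate 3, with a gap of 0.897 of the group's range to the next library. Ciart was at 27.0 CPM in nicotine replicate 3, with a gap of 0.856. The other 3 arecoline libraries of Cry2 lay between 217 and 221 CPM, and the other 3 nicotine libraries of Ciart between 20.4 and 21.4 CPM.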

How the results depend on the processing

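Of 951 alternative values of single genes and correlations, 828 kept direction and side of the threshold. Of the rest, 19 passed newly, 65 no longer passed and 39 changed direction. Most of the 951 belonged to results that had not passed, so the 828 says little of the calls. Of 21 alternatives each with caffeine, 7 no longer passed for Nr1d2, 13 for Nfil3, 6 for Jun and 11 for Nr4a3. The number was 15 for Egr3, 9 for Thra and 2 each for Dnajb1 and Hspa1a. With caffeine against saline 1 clock gene was called, where 4.08% of all genes were. This count became 2 with DESeq2 (10.2% of all genes), on only the 2 groups compared (5.68%) and with the GC covariate (6.52%). It became 3 without the 4 libraries that stood apart (10%). With the medium spiny neuron, oligodendrocyte or astrocyte score it became 0 (0.273%, 0% and 0.00681%). Leaving out 1 library gave 0 to 1 (0.155% to 6.7%). For arecoline against saline the 0 calls became 1 with DESeq2 (3.12%) and without the 4 libraries (6.39%), and 0 to 1 leaving out 1, each time Dbp. For caffeine against arecoline they became 1 with DESeq2 (Nr1d2, 2.59%). For arecoline against nicotine they became 1 with DESeq2 (Cry1, 4.15%). The medium spiny neuron score (1.26%) and the fit without the 4 libraries (1.89%) also gave 1 there (Dbp), and leaving out 1 gave 0 to 1. For the mean of the 3 compounds the 0 calls became 1 without the 4 libraries (8.51%) and with the GC covariate (2.53%), and 0 to 1 leaving out 1. For any difference they became 4 with DESeq2 (11.4%) and 1 without the 4 libraries (8.02%), and 0 to 1 leaving out 1. In arecoline comparisons the library whose absence added Dbp was arecoline replicate 2. Without it 1.33% of all genes passed against saline and 2.01% against nicotine. The cause was not tested.

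Replicate numbers did not pair the libraries: 8 of 24 same-number pairs correlated above 0.1 (r from -0.276 to 0.49), and 4 of 16 libraries correlated best with their own number. With the replicate block, caffeine against saline called 997 genes in place of 599 and still 1 clock gene. For any difference the block gave 1 clock gene (Nr1d2), against 2.9% of all genes.

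Directions changed mostly for small values. Per1 with caffeine went from -0.04 to 0.02 with the block, 0.39 and 0.37 with the medium spiny neuron and oligodendrocyte scores and 0.22 without the 4 libraries, and leaving out 1 library gave -0.17 to 0.22. Per2 with caffeine ran from -0.13 to 0.18 leaving out 1. The oligodendrocyte score turned Ciart with caffeine to 0.03 and Nr1d2 with arecoline and nicotine to 0.02 and 0.09, and the medium spiny neuron score turned Dbp with nicotine to 0.14. With caffeine, Npas2, Tef and Hlf turned to 0.61, 0.37 and 0.33 with the medium spiny neuron score, to 0.53, 0.43 and 0.62 with the oligodendrocyte score and to 0.24, 0.01 and 0.03 without the 4 libraries. Leaving out 1 library gave -0.55 to 0.25 for Npas2, -0.53 to 0.01 for Tef and -0.16 to 0.04 for Hlf. Nfil3 with nicotine turned to -0.05 and -0.2 with these scores. Correlations with Dbp changed sign without the 4 libraries for Per1 (-0.25), Per2 (-0.35), Per3 (-0.09), Cry1 (-0.03), Nr1d1 (-0.53), Nr1d2 (-0.04) and Ciart (-0.08). Without arecoline replicates 1 and 2 they did so for Per2 (-0.09), Ciart (-0.10) and Arntl (0.06).

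No clock gene had fewer than 143 counts in any library.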
